A study of Homo sapiens with 24 samples.

Results

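The epidermal growth factor receptor (EGFR) family and its ligands were followed in RT112 cells, a line established from a human bladder cancer. The 9 genes were listed by name: the receptors EGFR, ERBB2 and ERBB3 and the ligands AREG, EREG, HBEGF, TGFA, BTC and EPGN. Of these 9, 7 had at least 1 probe set named for them alone on the array, out of 19775 genes named in this way, and these 7 had 28 probe sets. AREG and EPGN had no named probe set here and were not analysed. For each gene the probe set with the highest mean over all arrays stands for the gene, and values are log2 expression, so that a difference of 1 is 2-fold. Probe sets differ in binding, so levels are compared between arrays for the same gene and not between genes.

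The arrays came from cells with an inducible short hairpin RNA, a transcript that directs the breakdown of a chosen mRNA. Of the 4 labelled lines, 1 carried a hairpin against EGFP, a jellyfish gene used as the control target, and 3 carried hairpins against the receptor FGFR3, named 2-4, 4-1 and 6-16. Doxycycline, the drug that switches the hairpin on, was given at 1 µg/ml or left out for 48 h, in low serum (1%) throughout. This gave 8 labelled groups of 3 arrays, 24 arrays in all. All groups shared the RT112 background, and the labels do not say whether the arrays of a group came from separate cultures. The p-values thus measure the spread between these arrays and not one between known separate cultures. Most arrays were most like arrays of other labelled groups, as given below. This spread thus includes differences that the labels do not follow.

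EGFR, ERBB2 and ERBB3 are receptor tyrosine kinases that pair with each other after a ligand binds. ERBB2 has no known ligand of its own and ERBB3 has little kinase activity, so they signal in pairs with other members. EREG, HBEGF, TGFA and BTC are made as membrane-bound precursors and are released by proteases of the ADAM family. These receptors feed the same RAS, ERK and PI3K routes as FGFR3, and raised signalling from them is a known way in which bladder cancer cells with active FGFR3 keep growing when FGFR3 is inhibited. EPGN, EREG, AREG and BTC are consecutive protein-coding genes on chromosome 4 in the RefSeq gene table of GRCh38.p14.

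ERBB2 and HBEGF are the members whose levels are set out most fully below, and the 250 bases before their annotated starts are shown for that reason. They were taken from RefSeq promoter windows of GRCh38.p14, where 8 of the 9 genes had an entry. The ERBB2 window is chr17:39687844-39688093 on the plus strand, and the HBEGF window is chr5:140346604-140346853 on the minus strand. Both are written 5′ to 3′. Capitals mark matches, on either strand, to the ETS core CCGGAAG and to the AP-1 motif TGANTCA in ERBB2, and to the GC box GGGCGG in HBEGF.
ERBB2: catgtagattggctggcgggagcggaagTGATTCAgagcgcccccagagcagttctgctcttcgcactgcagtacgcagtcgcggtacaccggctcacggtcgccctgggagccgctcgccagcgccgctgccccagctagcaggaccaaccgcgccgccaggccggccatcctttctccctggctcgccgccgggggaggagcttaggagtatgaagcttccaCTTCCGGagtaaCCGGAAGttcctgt
HBEGF: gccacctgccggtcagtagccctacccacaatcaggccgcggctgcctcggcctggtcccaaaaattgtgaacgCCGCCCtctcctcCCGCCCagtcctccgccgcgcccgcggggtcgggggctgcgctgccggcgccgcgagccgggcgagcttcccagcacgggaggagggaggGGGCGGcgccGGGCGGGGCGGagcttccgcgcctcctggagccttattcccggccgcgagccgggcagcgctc

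The ERBB2 window held 2 ETS core matches, whose first bases lay 26 and 14 bases before the start, and 1 AP-1 match 222 bases before it. The HBEGF window held 5 GC box matches, of which those 63 and 58 bases before the start overlap, and no ETS core or AP-1 match. Of 35116 windows of the same length, 8.52% held an ETS core match, 6.57% an AP-1 match and 42.6% a GC box match. The forkhead motif GTAAACA, present in 2.98% of windows, was found in neither. A match describes letters in the window and not a binding site.

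The labels were checked first on the targeted gene. With doxycycline FGFR3 changed by -0.24 (log2) in 4-1, by 0.15 in 2-4 and by 0.42 in 6-16, and by 0.16 in the EGFP line, with a standard error (SE) of 0.31. No such value was past the threshold. This rests on the main FGFR3 probe set. TACC3, in RT112 the known fusion partner of FGFR3, changed by 0.28 in 2-4, 0.32 in 4-1 and -0.71 in 6-16. In the EGFP line it changed by 0.19, and the SE was 0.46. None of these passed the threshold either. The libraries labelled as induced thus do not show a lower target past the threshold on these probe sets. Each group below is named by its label alone. When each array was matched to the 2 arrays most like it across genes, the 24 arrays formed 8 closed triplets. Only 2 of the 24 arrays had an array of their own labelled group among those 2. The likeness of the arrays thus did not follow the labels. Which label belongs to which array could not be settled from these values. Each labelled change below, and each lack of one, therefore holds for the arrays as labelled. Of 19 urothelial and epithelial markers, 18 had a mean above 7.04, the median of all values, among them EPCAM at 12.73 to 13.05, while KRT20 ran from 5.25 to 7.45. So did 6 of 8 fibroblast markers, with LUM at 12.84 to 13.56 and PDGFRA lower at 6.71 to 7.13, and 3 of 4 endothelial markers. Of 7 measured leukocyte markers 2 did, CD3E at 8.20 to 8.60 and CD79A at 8.15 to 8.72, while PTPRC lay between 5.60 and 5.97. Over all 19775 genes, 13108 had a mean above that median. A mean above it is thus common and does not by itself show that a cell type is present.

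With the arrays grouped by label, the first question was whether receptors or ligands changed when the hairpin was induced. None of the 7 measured genes passed limma's test in any line, in the difference between the FGFR3 lines and the EGFP line, or in the F-test among the FGFR3 lines. Over all genes limma called 0 of 19775 in each of these comparisons, which is 0%. Before adjustment, limma's p was under 0.05 for 505 genes (2.55%) in the EGFP line, 487 (2.46%) in 2-4, 223 (1.13%) in 4-1 and 1539 (7.78%) in 6-16. The same held for 428 (2.16%) in the difference and 636 (3.22%) in the F-test. On the main probe sets, EGFR in the 2-4 line was the only member change at that unadjusted level in limma. With array weights 1291 genes were called in the 6-16 line, and no member was among them. In 3 of the 28 pairs of gene and line the arrays with and without doxycycline did not overlap, described below. In the 4-1 line, where 3.79% of all genes did not overlap, all 7 members overlapped.

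EGFR, a receptor for the measured ligands, had the arrays of the 2-4 line apart. Its level was 11.17, 11.00 and 10.96 without doxycycline and 11.33, 11.41 and 11.64 with it, so all arrays with doxycycline lay higher. The log2 change was 0.42 with a 95% interval of 0.036 to 0.80 and a limma adjusted p of 0.999. In the 2-4 line, 7.43% of all genes had groups that did not overlap. The changes in the other lines were 0.047 in 4-1, -0.018 in 6-16 and -0.14 in the EGFP line, each with an SE of 0.18. The F-test among the 3 hairpins gave an unadjusted p of 0.217 and a limma adjusted p of 1.00 for EGFR. On the EGFR probe set with the largest SD, the changes were -0.15 in 2-4, -0.075 in 4-1, -1.28 in 6-16 and -0.46 in the EGFP line. None was past the threshold, with a limma adjusted p of 0.439 in 6-16.

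ERBB2, the preferred partner receptor, had wide and overlapping groups in every line. In the 2-4 line its level was 11.05, 11.88 and 11.12 without doxycycline and 11.28, 11.67 and 11.17 with it. In the 4-1 line it was 12.07, 11.55 and 11.15 without and 11.77, 11.49 and 11.06 with doxycycline. Replicate 2 of the 2-4 arrays without doxycycline lay far above its group, and the 4-1 arrays were spread widely with and without the drug. The log2 changes were 0.024 in 2-4, -0.15 in 4-1, 0.22 in 6-16 and -0.27 in the EGFP line, with an SE of 0.26. Single arrays moved these values by much. Leaving out that replicate 2 gave 0.29 for the 2-4 line, leaving out the 12.07 array gave 0.094 for the 4-1 line, and leaving out replicate 2 of the induced 6-16 arrays, at 11.90, gave -0.028 there.

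ERBB3, the receptor that recruits PI3K, had lower levels with doxycycline in every array of the EGFP line. Its level there was 12.02, 11.97 and 12.37 without and 11.76, 11.76 and 11.93 with doxycycline, and the groups did not overlap. In the EGFP line 10.6% of all genes had groups that did not overlap. The log2 change was -0.31 ± 0.23 (SE) with a limma adjusted p of 0.975, and it was -0.18 without replicate 3 of the uninduced arrays, at 12.37. In the FGFR3 lines ERBB3 had changes of -0.0042, 0.091 and 0.059, and the mean FGFR3 line change exceeded the EGFP line change by 0.35 with a 95% interval of -0.20 to 0.90, or by 0.23 without that array. The EGFP arrays enter both values, so they are not separate results.

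HBEGF, a ligand of EGFR with a heparin-binding tail, had the widest range of the 7 genes, 1.33 on the log2 scale. In the 6-16 line it was 10.02, 10.11 and 9.94 without doxycycline and 9.56, 9.10 and 9.70 with it, so every array with doxycycline lay lower. In the 6-16 line 14.3% of all genes had groups that did not overlap. The log2 change was -0.57 ± 0.33 (SE), with a limma adjusted p of 0.707. In 2-4 HBEGF changed by -0.074, in 4-1 by 0.29 and in the EGFP line by 0.12, none past the threshold. The difference between the FGFR3 lines and the EGFP line was -0.23, and among the uninduced EGFP arrays leaving out replicate 2 moved it to -0.57 and leaving out replicate 3 to -0.027. In order of group means, HBEGF ran from 9.19 ± 0.58 (SD, n = 3) in the EGFP line without doxycycline to 10.02 ± 0.081 in the 6-16 line without it. The next highest group was 4-1 with doxycycline at 9.59 ± 0.46, and every pair of neighbours in this order differed by less than the larger of their SDs.

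TGFA, a ligand of EGFR made by many carcinomas, had a log2 change of 0.057 in 4-1, -0.18 in 2-4, -0.23 in 6-16 and -0.14 in EGFP, with an SE of 0.17. BTC, which binds EGFR and ERBB4, and EREG, which does too, lay under the median of all values, with 3.49 to 4.48 and 6.04 to 6.54. BTC had changes from -0.25 in 4-1 to 0.30 in 6-16 with an SE of 0.21, and EREG had changes from -0.073 to 0.046 with an SE of 0.11. All labelled groups of TGFA, BTC and EREG overlapped within each line. Low values on an array hold little information on a transcript, so the BTC and EREG values do not show whether these ligands are made.

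**Figure D1:**
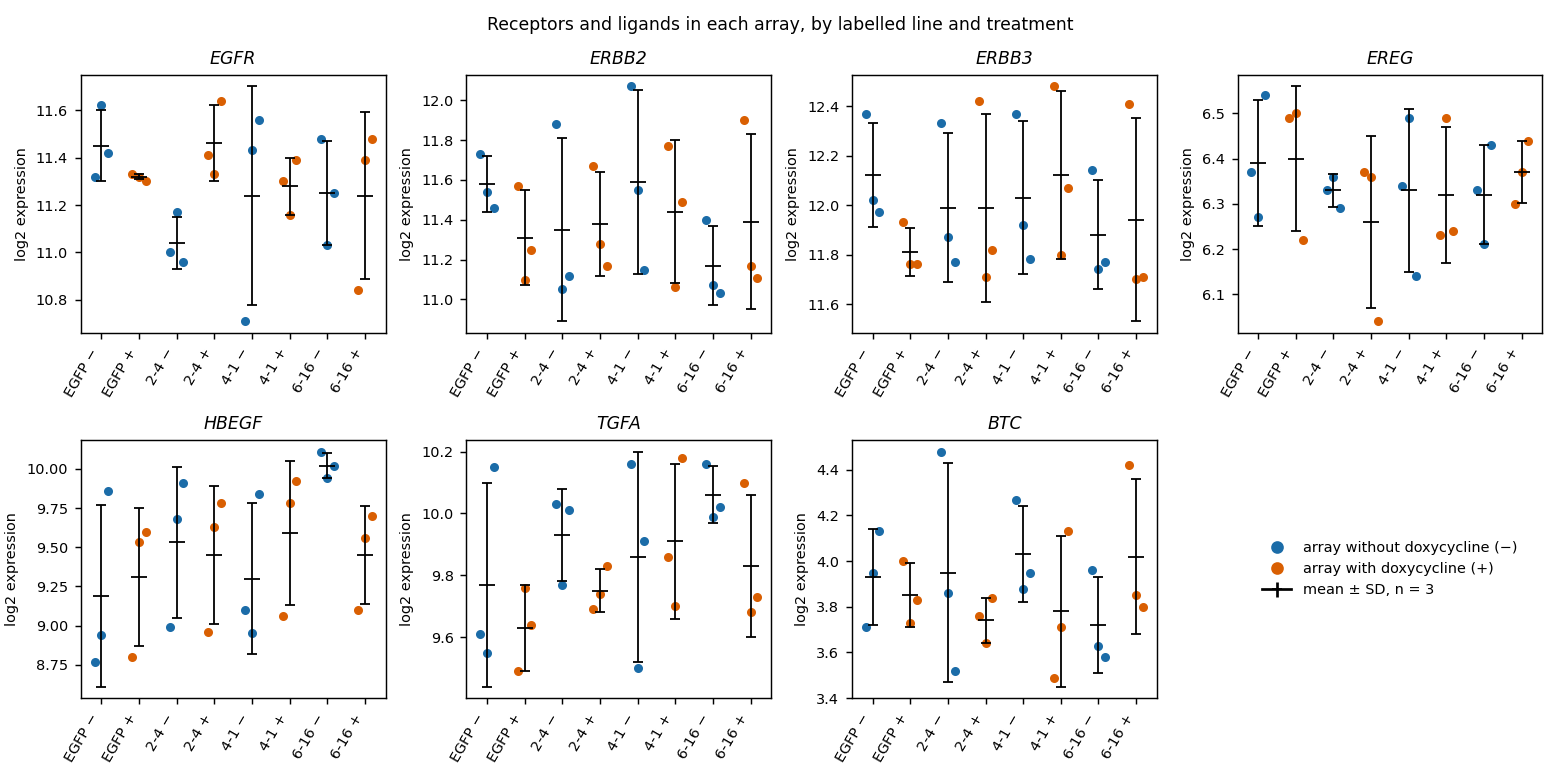
Log2 expression of the 7 measured receptors and ligands in each of the 24 arrays, by labelled line (EGFP, 2-4, 4-1, 6-16) without (−) and with (+) doxycycline; points are arrays, bars are mean ± SD of 3 arrays, and each panel has its own axis that does not start at 0. The 2-4 arrays of EGFR and the 6-16 arrays of HBEGF separate by doxycycline, while the ERBB2 arrays of the 2-4, 4-1 and 6-16 lines spread widely and overlap.

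**Figure D2:**
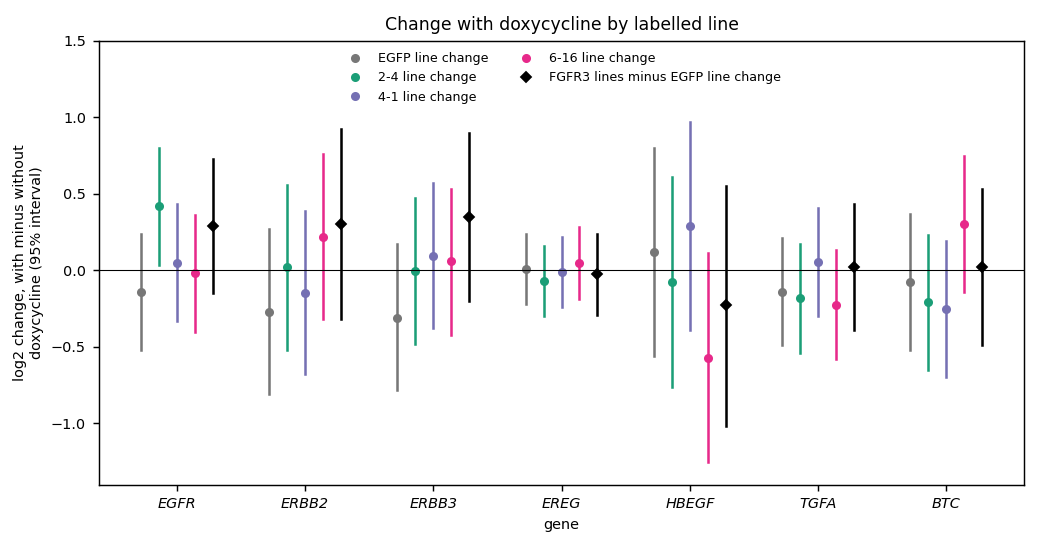
Log2 change with doxycycline, with its 95% interval from limma, for each gene in the 4 labelled lines and for the mean FGFR3 line change minus the EGFP line change (diamonds). Every interval spans 0 except that of EGFR in the 2-4 line, which runs from 0.036 to 0.80.

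The labelled groups held little of the spread of these genes. They held 17.6% of the variance of ERBB2, 14.2% of that of ERBB3 and 31.4% of that of HBEGF. The SD within labelled groups was 0.34 for ERBB2 and 0.30 for ERBB3, against 0.31 and 0.27 over all 24 arrays. HBEGF, with 0.43 and 0.44, ERBB2 and ERBB3 were among the more variable genes, since 97.3%, 93.2% and 90.3% of all genes had a smaller SD over the arrays. The spread lay between arrays in a way the labels do not follow.

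The rule for these genes also sets them beside TACC3, a mitotic spindle gene and, in RT112, the known fusion partner of FGFR3. It divides the arrays at a TACC3 level of 11.6 on its single probe set. This split is made from a value measured on the same arrays. It is not a group of the study, it assigns no array to a treatment, and its sides were not tested against each other. Of the arrays, 9 lay below the level and 15 above it, and the nearest arrays were 2 at 11.43 below and 1 at 11.82 above. The 9 arrays below came from 7 of the 8 labelled groups, all except 6-16 without doxycycline.

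ERBB2 was higher in every array below the TACC3 level than in any array above it. It ran from 11.54 through a median of 11.73 to 12.07 in the 9 arrays and from 11.03 through 11.15 to 11.49 in the 15 arrays. HBEGF lay the opposite way, from 8.77 through 8.96 to 9.10 below the level and from 9.53 through 9.78 to 10.11 above it. These were 2 of 7 measured members, while 5.99% of all genes but TACC3 had sides that did not overlap, 2.90% higher and 3.09% lower below the level. The highest ERBB2 value above the level and the lowest below it, 11.49 and 11.54, lay close together, while those of HBEGF, 9.53 and 9.10, lay further apart.

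ERBB3 came close to the same arrangement as ERBB2. It ran from 11.92 through 12.37 to 12.48 below the level and from 11.70 through 11.77 to 12.14 above it. EGFR overlapped nearly in full, with medians of 11.32 and 11.33. TGFA had medians of 9.69 and 9.83, BTC of 3.95 and 3.83, and EREG of 6.34 and 6.36, all with overlapping sides. Across the receptor family, then, the arrays with low TACC3 held the higher ERBB2 and most of the higher ERBB3 values, with the lower HBEGF values and no shared level of EGFR.

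Other probe sets of the same genes were compared where their mean lay above the median of all values, which held for 17 of the 28. The other such HBEGF probe set gave 7.33 to 7.73 below and 7.99 to 8.48 above the level, again with no overlap. For ERBB3, a further probe set gave 11.53 to 12.16 below and 11.40 to 11.81 above, and another gave 9.04 to 9.23 and 8.85 to 9.19. ERBB2 had 1 probe set above the median, so its pattern rests on that one. All 8 such EGFR probe sets and all 3 of TGFA overlapped.

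Signs of RNA quality moved with the split. The excess of 3′ over 5′ signal for GAPDH, which grows as RNA breaks down, was 0.28 to 0.42 below the level and 0.20 to 0.29 above it. For ACTB it was 0.79 to 1.17 and 0.70 to 0.97. The part of RNA quality in the ERBB2, ERBB3 and HBEGF values was not tested. The mean level of the 7 measured leukocyte markers, 6.51 to 6.80 below and 6.51 to 6.79 above, and of the 8 fibroblast markers, 8.20 to 8.34 and 8.16 to 8.32, lay in nearly the same range on the 2 sides, as did the 4 endothelial markers, 7.43 to 7.66 and 7.48 to 7.74. Of the fibroblast markers, LUM ran from 13.26 to 13.56 below and from 12.84 to 13.36 above. It was higher below the level without overlap in all 3 sets of arrays described next, as were 7.63% of all genes but TACC3. The 19 urothelial and epithelial markers had a mean of 11.27 to 11.74 below and 11.05 to 11.41 above, with 4 higher and 1 lower below the level without overlap, where 2.90% and 3.09% of all genes were. The part of LUM and of these markers in the ERBB2, ERBB3 and HBEGF values was not tested. In bulk RNA, fewer cells of a type and less RNA per cell cannot be told apart.

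The arrays also stood apart in 3 sets of 6, each by a gap in the values of 1 marker gene, a division chosen after earlier results of these data were seen. In 6 arrays ARMCX3 was at 4.25 to 4.93, against 9.45 to 10.31 in the others. In another 6 the main FGFR3 probe set was at 11.13 to 11.43, against 11.83 to 12.34. In a further 6 GAS1 was at 8.52 to 9.47, against 5.39 to 6.51. The other 6 arrays had none of these marks and all lay above the TACC3 level. Each of the 3 marked sets held 3 arrays below the level and 3 above it, drawn from all 4 labelled lines. FGFR3 on its main probe set overlapped over all 24 arrays but was lower below the level within each set. It was 11.83 to 11.96 against 12.19 to 12.22 in the ARMCX3-low arrays and 12.13 to 12.20 against 12.27 to 12.34 in the GAS1-high arrays. In the FGFR3-low arrays it was 11.13 to 11.34 against 11.36 to 11.43. Of all genes but TACC3, 6.67% were lower in all 3 sets.

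ERBB2 was higher below the level within each set. It was 11.88 to 12.07 against 11.40 to 11.49 in the ARMCX3-low arrays. The ARMCX3-low arrays below the level were the same arrays that moved the labelled ERBB2 changes above when left out. In the FGFR3-low arrays it was 11.67 to 11.77 against 11.03 to 11.12, and in the GAS1-high arrays 11.54 to 11.57 against 11.11 to 11.17. The ARMCX3-low arrays had higher ERBB2 than the other sets on the same side of the level, so the set and the TACC3 level both went with the ERBB2 value.

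ERBB3 did the same on its main probe set, with its sides apart within every set. It was 12.33 to 12.41 against 11.97 to 12.14 in the ARMCX3-low arrays, 12.37 to 12.48 against 11.74 to 11.77 in the FGFR3-low arrays, and 11.92 to 12.02 against 11.71 to 11.82 in the GAS1-high arrays. The overlap of this probe set over all 24 arrays thus came from levels that differ between sets. The other ERBB3 probe sets above the median did not separate in every set. The brighter one overlapped in the GAS1-high arrays, at 11.53 to 11.67 below and 11.41 to 11.62 above, and was apart in the ARMCX3-low and FGFR3-low arrays. The dimmer one was apart in the FGFR3-low arrays only. HBEGF was lower below the level in each set, at 8.99 to 9.10 against 9.86 to 10.11, 8.77 to 9.06 against 9.91 to 10.02, and 8.80 to 8.95 against 9.70 to 9.84. Among all genes but TACC3, 7.63% were higher and 6.67% lower below the level without overlap in all 3 sets, against 2 and 1 of these 7 members.

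EGFR had no common direction among the sets. Below the level it was lower in the ARMCX3-low arrays, at 10.71 to 11.00 against 11.39 to 11.48. It was higher in the FGFR3-low arrays, at 11.30 to 11.41 against 10.96 to 11.25, and overlapped in the GAS1-high arrays, at 11.33 to 11.62 against 11.48 to 11.64. A separation in a single set is common, since 35.9%, 45.1% and 33.4% of all genes but TACC3 separated in the ARMCX3-low, FGFR3-low and GAS1-high sets.

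TGFA was lower below the level in 2 of the 3 sets. It was 9.61 to 9.86 against 9.99 to 10.02 in the FGFR3-low arrays and 9.49 to 9.55 against 9.73 to 9.91 in the GAS1-high arrays. In the ARMCX3-low arrays it was high on both sides, at 10.03 to 10.16 and 10.15 to 10.18. BTC was at its highest, 4.27 to 4.48, in the ARMCX3-low arrays below the level, still under the median of all values. The 6 unmarked arrays had 11.05 to 11.28 for ERBB2, 11.70 to 11.87 for ERBB3 and 9.53 to 9.78 for HBEGF, within or next to the ranges of the other arrays above the level.

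**Figure D3:**
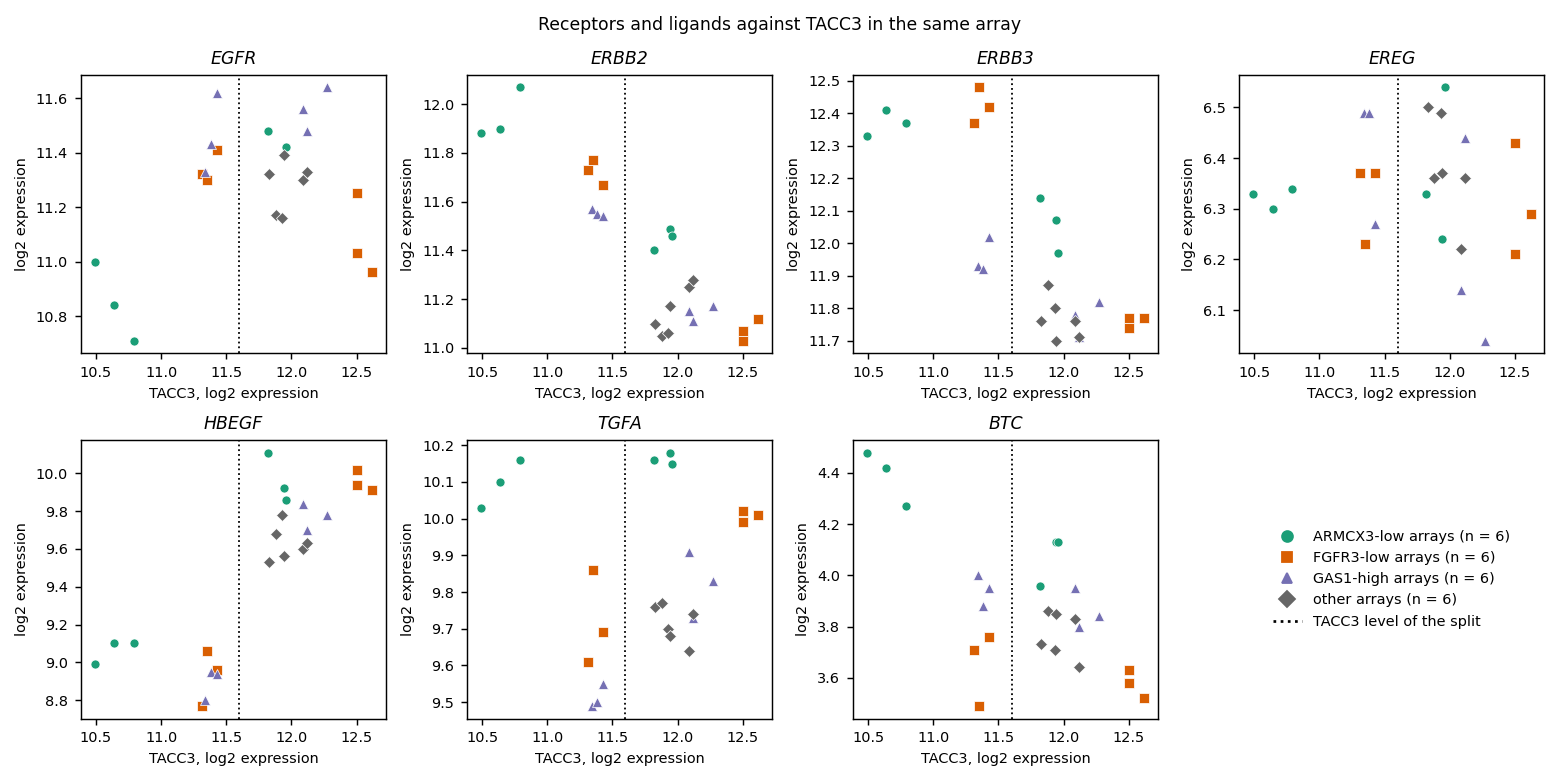
Log2 expression of each gene against TACC3 in the same array, with 1 point for each of the 24 arrays, marked by array set (6 arrays each), and a dotted line at the TACC3 level of 11.6; axes do not start at 0. ERBB2 lies above 11.5 in all 9 arrays left of the line and HBEGF lies at or below 9.10 there, while EGFR spreads by set on both sides.

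EGFR itself was read by 9 probe sets, and these did not all follow each other. The main probe set had a Pearson r over the 24 arrays of 0.77 to 0.89 with 4 of the others, a description with no test. With the probe set of largest SD, which ran from 7.60 to 10.43, it had an r of -0.20. A further probe set, from 7.61 to 10.44, had an r of -0.22 with the main one. The remaining ones had 0.06, on a probe set under the median of all values, and 0.27. The 3 highest values of the probe set with the largest SD, 9.66, 9.74 and 10.43, were those of the FGFR3-low arrays above the TACC3 level. These arrays had only 10.96 to 11.25 on the main one. The lowest value on each probe set need not fall in the same array. On the probe set with the largest SD the lowest value was replicate 1 of the 2-4 arrays with doxycycline. Which EGFR transcript each probe set reads was not analysed here.

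**Figure D4:**
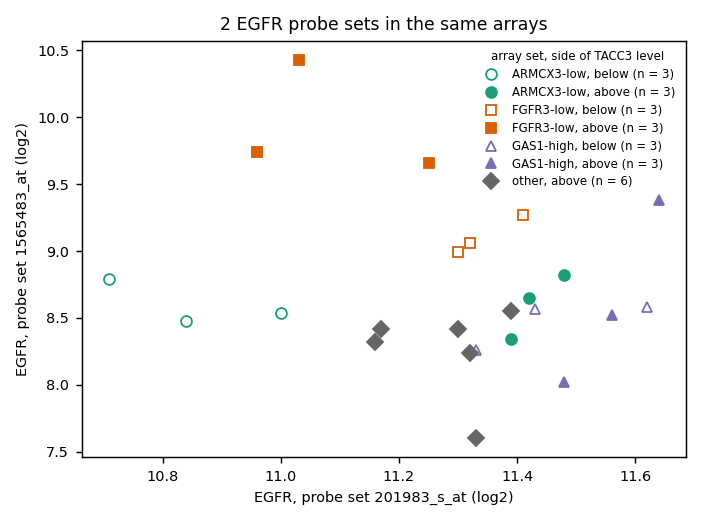
Log2 expression on the EGFR probe set with the largest SD against that on the main EGFR probe set, with 1 point for each of the 24 arrays, shaped and coloured by array set, open below the TACC3 level and filled above it; axes do not start at 0. The 3 filled FGFR3-low points at 9.66 to 10.43 lie above all other arrays and have main values of 10.96 to 11.25.

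Because the arrays fell into triplets of like arrays on each side of the level, relations among members across arrays could not be tested as relations among independent samples. As a description over the 24 arrays, the genes with the most similar pattern to each member were ranked by Pearson r among 9888 genes with at least the median SD. ERBB2 was most like LAMB3, a laminin chain of hemidesmosomes (r = 0.98), METRNL (0.97) and MYOF, a membrane repair protein (0.97). ERBB3 was most like SECISBP2L (0.97), SMURF1, a ubiquitin ligase (0.96), and RIOK3 (0.96). HBEGF was most like ASPH (0.97), the proteasome subunit PSMD14 (0.97) and the phosphate transporter SLC20A1 (0.97).

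The other members had their own nearest genes. TGFA was most like PCDH1, a protocadherin, AQP3, a water and glycerol channel, and LYPLA1, each with r = 0.94. EGFR was most like ELAVL2 (0.87), UACA (0.85) and LOC105379499 (0.85), and BTC like UCP2 (0.92), PLXNA2 (0.91) and CAMK2N1 (0.91). EREG, which varied least, was most like MIR99AHG (0.87), LOC101928881 (0.86) and PWRN1 (0.84). No gene stood in the list of more than 1 member. The arrays share a cell line and, in triplets, most of their expression profile, so these values carry no test.

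The remaining genes of the pathway were read from 5 lists. No gene of any list passed limma's test in a labelled comparison. In the difference between the FGFR3 lines and the EGFP line, the median over all genes was -0.017. The 6 other receptors and ligands of the family had a median of -0.016, with ERBB4, the fourth receptor, at -0.10 ± 0.28 (SE). The 8 genes of ligand shedding had a median of -0.018, with the ADAM inhibitor TIMP3 at 0.34 ± 0.39. The 14 measured of 20 adaptors and transducers had a median of -0.052, with SOS1, which loads RAS with GTP, at 0.34 ± 0.30. The 12 measured genes that restrain the receptors had a median of 0.052, with SPRY2 at -0.42 ± 0.45. The 18 immediate early and ERK target genes had a median of -0.20 with 14 of them negative, as were 11114 of all 19775 genes. In the single lines this list had a median of 0.19 in EGFP (14 positive), 0.067 in 2-4 (12 positive), 0.20 in 4-1 (17 positive) and -0.21 in 6-16 (16 negative). DUSP6, an ERK phosphatase, stood at -0.62 ± 0.82 and PHLDA1 at -0.46 ± 0.71.

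Beside the TACC3 level, the ERK targets were the list with the most genes apart. Of its 18 genes, 9 were lower in every array below the level than in any above it and 0 were higher, where 3.09% and 2.90% of all genes but TACC3 were. PHLDA1 ran from 9.45 to 10.65 below and from 11.10 to 11.82 above, and DUSP6 from 10.73 to 11.40 and from 12.50 to 12.97. ERRFI1, an inhibitor that binds active EGFR and ERBB2, was the 1 of 12 receptor restraint genes with sides apart over all 24 arrays. It was at 9.96 to 10.23 below and 10.37 to 10.77 above, and 1 of 12 is a share near the 5.99% of all genes. SPRY2 overlapped over all 24 arrays, at 7.42 to 8.40 and 7.74 to 8.91. Within each of the 3 sets, SPRY2, LRIG1 and ERRFI1 were lower below the level without overlap, and SOCS5 was higher. Of all genes but TACC3, 6.67% were lower and 7.63% higher in all 3 sets.

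Of the 14 adaptors and transducers, 2 were higher and 3 lower below the level, where 2.90% and 3.09% of all genes were. SOS1 was higher, at 10.42 to 10.80 against 9.82 to 10.27. SHC1, HRAS and MAP2K1 were lower, and SOS2 higher. None of the 8 shedding genes separated over all 24 arrays. ADAM17, the main protease for TGFA and HBEGF, had 9.92 to 10.16 below and 9.92 to 10.20 above. TIMP3 had 11.20 to 12.13 and 10.74 to 11.74. Within each of the 3 sets TIMP3 was higher and ICMT lower below the level without overlap. In all 3 sets, 7.63% of all genes but TACC3 were higher and 6.67% lower below the level. None of the 6 other receptors and ligands separated over all 24 arrays, and only NRG4 did so within each set. ERBB4 lay at 6.55 to 7.36 and 6.28 to 7.26, and NRG1, a ligand of ERBB3, at 6.69 to 7.02 and 6.68 to 6.94.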

How the data were processed

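Total RNA (3 µg) was made into biotinylated cRNA and hybridised to Affymetrix 3′ arrays, per the labels' protocols. The deposited values are log2 expression of 54675 probe sets; the submitters' processing notes name RMA (background correction, quantile normalization and a summary over probes) and affy, with no version. How probes were grouped was not given in the sources used here. Probe sets with 1 gene symbol in GEO's platform annotation (41097; 1801 had several and 11777 none) were kept, and the one with the highest mean stood for each of 19775 genes. Of those 41097, 41043 matched a RefSeq gene table by Entrez identifier and 0 symbols changed. No filter on low values was applied. No 2 arrays were identical, and array medians ran from 6.98 to 7.08. Precision is limited by how many arrays there are.

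A limma model (3.58.1, R 4.3.3) with 8 group coefficients gave every change, with 16 residual degrees of freedom, moderated SE and Benjamini-Hochberg adjustment over all genes at 0.05. The steps were tested on simulated data. Ranges beside the TACC3 level are descriptions. The members, lists, array sets and rules were chosen with earlier results of these data known. Named were all members, FGFR3 and TACC3, the 3 genes most like each member, and from each list any gene passing limma or else the gene with the largest difference and that with the widest range. Marker genes and genes that separated beside the TACC3 level, over all arrays or within the array sets, were named after their values were seen. So were ADAM17, NRG1, ERRFI1, SHC1, HRAS, MAP2K1 and SOS2. Alternatives were the replicate block, array weights, fewer arrays, a filter on low values, another probe set, re-centring, another prior and leaving out each array. Figures were drawn with matplotlib 3.10.9.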

Additional observations from a re-analysis of the deposited data

How the results depend on the processing

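With 1 of the 24 arrays left out, limma called 0 genes in every labelled comparison and no member passed, the lowest and highest counts both being 0. Alternatives that changed a count were few. In the 6-16 line 1 gene was called with the replicate block, 1291 with array weights and 1 with only the arrays compared; the cause was not tested. The replicate numbers did not clearly pair the arrays. Same-numbered arrays of different groups had deviations correlated from -0.73 to 0.88, with a median of 0.13, against a median of -0.015 for other numbers. Of the 24 arrays, 12 were nearest to an array of their own number. The block changed no member's call or direction. Array weights reversed TGFA in the EGFP line (0.043), ERBB3 in 2-4 (0.043), 4-1 (-0.067) and 6-16 (-0.086), EREG in 4-1 (0.018), EGFR in 6-16 (0.16), and TGFA (-0.18) and BTC (-0.011) in the difference. The probe set with the largest SD reversed EGFR in 2-4 (-0.15), in 4-1 (-0.075) and in the difference (-0.044), and re-centring reversed ERBB3 in 2-4 (0.012). In 6-16 the probe set with the largest SD moved EGFR from -0.018 to -1.28, without a change of call.

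Changes near 0 turned sign when 1 array was left out, none of them called. In the EGFP line BTC ran from -0.19 to 0.025, EREG from -0.053 to 0.1, HBEGF from -0.091 to 0.45 and TGFA from -0.25 to 0.05. In the 2-4 line, BTC ran from -0.42 to 0.052, ERBB2 from -0.13 to 0.29, ERBB3 from -0.22 to 0.17, EREG from -0.13 to 0.037 and HBEGF from -0.34 to 0.17. In the 4-1 line, EGFR ran from -0.21 to 0.21, ERBB2 from -0.37 to 0.094, ERBB3 from -0.091 to 0.26, EREG from -0.1 to 0.075 and TGFA from -0.12 to 0.21. In the 6-16 line, EGFR ran from -0.14 to 0.18, ERBB2 from -0.028 to 0.37, ERBB3 from -0.18 to 0.19 and EREG from -0.011 to 0.1. In the difference between the FGFR3 lines and the EGFP line, BTC ran from -0.079 to 0.13, EREG from -0.11 to 0.04 and TGFA from -0.17 to 0.13.

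The 2 members whose sides of the TACC3 level did not overlap became 0 when every probe set of the member, dim ones included, had to separate, and stayed 2 with arrays re-centred. Of 21 pairs of members, those past an adjusted permutation p of 0.05 by Pearson r numbered 3 (4 by Spearman rho) among the 9 arrays below the level and 1 with the probe set of largest SD there. Among the 15 arrays above it they numbered 6 by r but 1 by rho, and 1 by r after removal of the labelled group means. These pairs are not read as relations, since the arrays came in triplets.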

Other observations

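NRG4, a ligand of ERBB4, was at 6.08 to 6.59 below the TACC3 level and 5.65 to 6.18 above it, under the median of all values throughout, and was higher below the level without overlap in each of the 3 sets of arrays. In all 3 sets 7.63% of all genes but TACC3 were higher below the level in this way. NRG4 was named after its values were seen. Among the 19 urothelial and epithelial markers, UPK1A, a surface protein of mature urothelium, ran from 12.08 to 12.97 below the level and from 10.01 to 11.36 above it. GATA3, KRT13 and CDH1 were also higher in every array below the level than in any above it, and KRT18 was lower, at 13.47 to 13.67 against 13.91 to 14.08.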
